A study of Mus musculus with 2 samples.

Results

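The 7 mouse genes that encode NMDA receptor subunits, Grin1, Grin2a, Grin2b, Grin2c, Grin2d, Grin3a and Grin3b, were followed in polyA RNA-seq of newborn forebrain. They were taken by symbol from the 55536 genes of the deposited gene table, and all 7 were found. The series holds 1 group of 2 libraries from B6NCrl mice on the day of birth (age 0 days), one from the single forebrain of pup 1 (replicate 1) and one from that of pup 3 (replicate 2). No treatment, transgene or mutation is named for either pup, sex was not collected, and both carry the same donor identifier. Libraries were primed with oligo-dT from 10 ng of RNA and fragmented by tagmentation. With 1 group there is no contrast to test, so levels are given per pup and as mean ± SD (n = 2 pups), and the SD measures only the spread between these 2 samples.

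NMDA receptors are glutamate-gated cation channels that pass calcium and need glycine or D-serine as a co-agonist. Each channel is a tetramer that holds the obligatory GluN1 subunit, from Grin1, together with GluN2 subunits, from Grin2a to Grin2d, or GluN3 subunits, from Grin3a and Grin3b. GluN2 subunits bind glutamate and set the kinetics of the channel, and in rodent forebrain GluN2B is known to prevail around birth while GluN2A rises later. GluN3 subunits bind glycine and lower calcium permeability.

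The libraries held 40964891 expected counts in pup 1 and 41230878 in pup 3. The labelled tissue matched its markers. All 5 forebrain markers were at 1 TPM (an abundance scaled for transcript length and library size) or more in both pups, while none of 7 hindbrain and spinal cord markers was, and Hoxa2, Hoxb3, Hoxb4, Hoxc4 and Mnx1 were listed at 0. Neuron, inhibitory neuron, astrocyte and oligodendrocyte precursor markers were detected in full, at 5 of 5 each, and mature oligodendrocyte markers at 2 of 5.

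Alternative coding segments distinguish the Grin1 and Grin3a transcripts, and 1 short Grin2b entry is told from the others by a single exon, so their sequences are shown first, each from the GENCODE M21 transcripts on mm10 (GRCm38) and written 5′ to 3′ on the minus strand. N1 is the exon of 63 bases at chr2:25311343-25311405 in the extracellular amino-terminal domain of GluN1, known to lower sensitivity to protons. C1 is the exon at chr2:25294438-25294548 in the intracellular tail, and its capitals mark 3 arginine codons in a row, known as an endoplasmic reticulum retention signal. C2 (114 coding bases, chr2:25292371-25292484) and C2' (66 coding bases, chr2:25292063-25292128) are alternative ends of the protein, and the capitals of C2' mark its last 4 codons, which are known to bind PDZ domains. The Grin3a insert, 60 coding bases at chr4:49665566-49665625, separates the 2 long Grin3a coding transcripts. The Grin2b exon, 48 bases at chr6:136173330-136173377, is the first exon of the transcript Grin2b-207, has no annotated coding sequence and lies outside all other annotated Grin2b transcripts.
N1: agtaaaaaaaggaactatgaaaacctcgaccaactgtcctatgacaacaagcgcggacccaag
C1: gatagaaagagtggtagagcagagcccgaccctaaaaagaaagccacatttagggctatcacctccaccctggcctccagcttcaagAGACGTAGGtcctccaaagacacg
C2: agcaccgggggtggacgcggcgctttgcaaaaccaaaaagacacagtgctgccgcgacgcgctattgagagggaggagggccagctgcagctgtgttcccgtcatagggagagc
C2': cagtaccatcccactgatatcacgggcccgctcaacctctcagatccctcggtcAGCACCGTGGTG
Grin3a insert: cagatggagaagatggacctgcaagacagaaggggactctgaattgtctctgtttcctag
Grin2b-207 first exon: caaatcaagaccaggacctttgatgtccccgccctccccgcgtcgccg

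Taken over all annotated transcripts, Grin2b was the highest of the 7 genes, followed by Grin1 and Grin3a, while Grin2d and Grin2a were near 2 TPM and Grin2c and Grin3b lay below 1 TPM. Of the 7, 4 (Grin1, Grin2b, Grin2d and Grin3a) reached 1 TPM in both pups, and 59.5% of 22028 protein-coding genes did. The order of the 3 highest genes changed when only full-length coding transcripts were counted, which are those whose coding sequence is at least 80% as long as the longest of the gene. Grin1 then came first, Grin3a second and Grin2b behind both, in each pup.

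Grin1 (ENSMUSG00000026959, chr2:25291181-25319187, minus strand), the obligatory subunit, reached 48.05 TPM in pup 1 against 37.26 TPM in pup 3, a mean of 42.7 ± 7.63 TPM (SD, n = 2 pups). The authors' deposited bounds on those estimates were 44.8 to 51.5 TPM and 34.3 to 40.2 TPM. They did not overlap between the pups, and neither did those of Grin2a, Grin2b, Grin2d or Grin3a. The share of all genes with bounds apart was not computed, so these gaps have no background to be read against. By another measure, direction alone, 79.6% of genes with a mean of 1 TPM or more were lower in pup 3. The mean of Grin1 exceeded that of 83.6% of protein-coding genes. The 8 full-length coding transcripts held 96.3% and 97.3% of its expected counts and 42.16 and 32.56 TPM, so the level of Grin1 moved little between the 2 ways of counting.

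Grin2b (chr6:135713233-136173511, minus strand), the GluN2 subunit of the early forebrain, reached 84.56 TPM in pup 1 against 49.66 TPM in pup 3, a mean of 67.1 ± 24.7 TPM. Both values exceeded both Grin1 values, and the log2 ratio of Grin2b to Grin1 within a library, on TPM + 0.1, was 0.81 in pup 1 and 0.41 in pup 3. Most of that TPM belonged to Grin2b-207, a noncoding entry of 241 bases with exons of 48, 73 and 120 bases, at 61.94 and 35.98 TPM. Grin2b-207 carried 73.2% and 72.5% of the Grin2b TPM from 230 and 150 expected counts. Those counts were 4.00% of the Grin2b total in pup 1, with Wilson 95% bounds of 3.53% and 4.54%, against 4.72% in pup 3, with bounds of 4.03% and 5.51%, which cover counting error only.

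Since TPM divides counts by effective length, here the length minus 99 bases, each count of an entry with an effective length of 142 bases weighs far more than a count of the long coding transcripts. Grin2b-201 (24060 bases) held 3342 and 1909 expected counts at 5.34 and 2.71 TPM. Grin2b-202 (7484 bases) held 2016 and 919 at 10.46 and 4.23 TPM. The 2 encode the same length of protein-coding sequence, and their last exons differ, at 20716 and 4123 bases. Together they took 93.2% and 88.9% of the Grin2b counts but 18.7% and 14.0% of its TPM.

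By these 2 coding transcripts alone Grin2b stood at 15.80 and 6.94 TPM, a mean of 11.4 ± 6.26 TPM, and the log2 ratio to Grin1 became -1.41 in pup 1 and -2.21 in pup 3. In the older M4 annotation, whose Grin2b lists 6 transcripts and lacks Grin2b-207, nearly the same counts (5707 and 3159) gave 38.76 and 22.64 TPM, below Grin1 at 50.28 and 38.94 TPM. Grin2b was 1 of 4 detected subunit genes with most of its TPM in transcripts under 500 bases in both pups, against 2.02% of 13113 detected protein-coding genes. It was likewise the 1 of 4 with only a minority of its TPM in full-length coding transcripts, against 17.9% of those genes. Because the 48-base exon in the sequences above is the only stretch of Grin2b-207 outside other Grin2b transcripts, reads in its other 193 bases could belong to several entries.

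**Figure D1:**
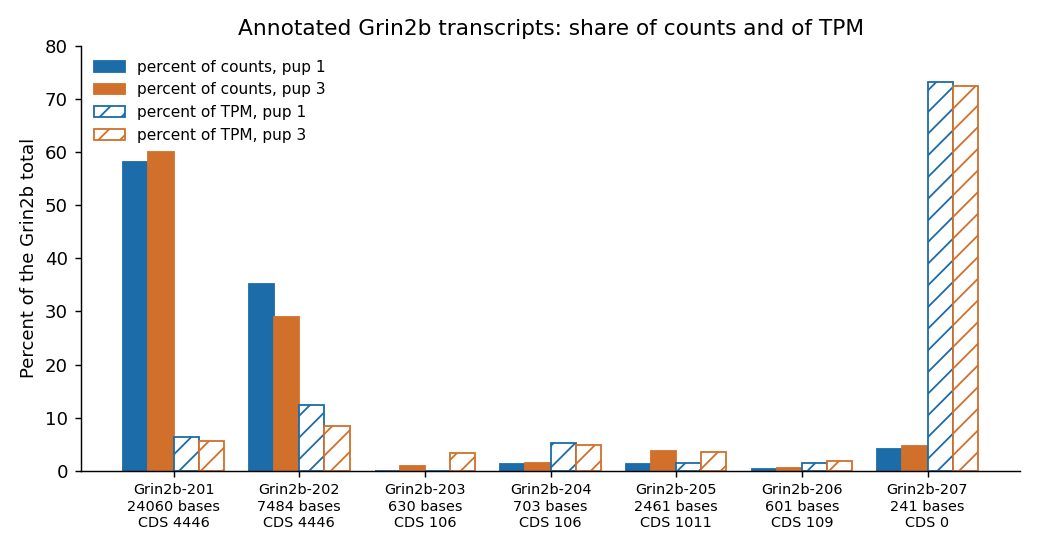
Percent of the Grin2b total held by each annotated transcript in each pup, by expected counts (filled bars) and by TPM (hatched bars), with transcript length and coding length (CDS) in bases below. Grin2b-201 and Grin2b-202 hold most counts, and the 241-base Grin2b-207 holds 73.2% and 72.5% of the TPM.

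Grin2a (chr16:9567898-9995560, minus strand), the later GluN2 subunit, reached 3.04 TPM in pup 1 against 0.81 TPM in pup 3, a mean of 1.93 ± 1.58 TPM. Its 345 and 166 expected counts fell mainly on the 14634-base coding transcript Grin2a-206, with 265 and 140 counts at 0.70 and 0.33 TPM. The entries annotated as retained introns, Grin2a-203 and Grin2a-204, took 58.6% and 43.9% of the gene's TPM from 21.1% and 14.7% of its counts. Grin2a-203 alone went from 1.43 TPM in pup 1 to 0.19 TPM in pup 3, and the noncoding Grin2a-205 was at 0.56 and 0.13 TPM. The gap between the pups in Grin2a was thus 3.75-fold over all transcripts and 2.12-fold over the full-length coding ones.

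Despite these shifts Grin2b exceeded Grin2a in both pups by either count. The log2 ratio of Grin2b to Grin2a was 4.75 in pup 1 and 5.77 in pup 3 over all transcripts, a mean of 5.26 ± 0.72, and 4.31 and 4.03 over full-length coding transcripts, a mean of 4.17 ± 0.20.

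Grin2d (chr7:45831883-45878378, minus strand), whose subunit gives slowly closing channels, reached 2.80 TPM in pup 1 against 1.49 TPM in pup 3, a mean of 2.15 ± 0.926 TPM. Its order against Grin2a differed between the pups over all transcripts, with a log2 ratio of Grin2d to Grin2a of -0.11 in pup 1 and 0.81 in pup 3. Over full-length coding transcripts Grin2d was the higher in both, at log2 ratios of 1.67 and 1.61. Its leading transcript, Grin2d-201, was at 2.05 and 1.11 TPM, Grin2d-203, also coding, at 0.40 and 0.10 TPM, and the short coding entry Grin2d-202 at 0.36 and 0.28 TPM.

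Grin2c (chr11:115249169-115267243, minus strand), a subunit known mainly from cerebellar granule cells, was low at 0.40 and 0.28 TPM, from 44 and 35 expected counts. Its coding transcripts Grin2c-201 and Grin2c-202 took 86.1% and 13.9% of its TPM in pup 1, and 83.3% and 16.7% in pup 3. Of 5 cerebellar granule cell markers only Zic1 was detected, and the receptor subunit gene Gabra6 was at 0.15 and 0.03 TPM.

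Within the summed TPM of the 4 GluN2 genes, Grin2b held 93.1% in pup 1 and 95.1% in pup 3 (94.1 ± 1.37%, n = 2 pups). Grin2d held 3.08% and 2.85%, Grin2a 3.35% and 1.55%, and Grin2c 0.441% and 0.536%. Over full-length coding transcripts the share of Grin2b was 80.5 ± 1.75% and that of Grin2d 13.2 ± 0.809%, while Grin2a held 3.69 ± 0.104% and Grin2c 2.61 ± 0.834%. Grin2b thus led the GluN2 genes in both pups and by both counts, with a smaller lead over full-length coding transcripts. The GluN2 sum exceeded Grin1 over all transcripts, at a log2 ratio of 0.92 in pup 1 and 0.49 in pup 3, and was below it over full-length coding transcripts, at -1.12 and -1.88.

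Grin3a (chr4:49661611-49845744, minus strand), the GluN3 subunit of the developing forebrain, reached 22.16 TPM in pup 1 against 12.00 TPM in pup 3, a mean of 17.1 ± 7.18 TPM. Its expected counts, 3939 and 2394, were below those of Grin1, at 4438 and 3801 in the same libraries, on coding transcripts of 7431 and 7491 bases where those of Grin1 measure 3809 to 4276 bases. Grin3a-201, without the 60-base insert, held 74.9% and 79.3% of its TPM. Grin3a-202, with the insert, held 10.4% and 5.5%, and the noncoding Grin3a-203 held 12.6% and 14.0%. The form without the insert thus led in both pups.

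Grin3a was lower than Grin2b over all transcripts, at log2 ratios of -1.93 in pup 1 and -2.04 in pup 3. Over full-length coding transcripts it was the higher in both, at 18.92 and 10.17 TPM and log2 ratios of 0.26 and 0.54, although the ranges of the 2 genes across pups overlapped.

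Grin3b (chr10:79970715-79977190, plus strand), known from motor neurons, was at 0.15 and 0.07 TPM from 13 and 3 expected counts. The 13 counts of pup 1 fell on the coding transcript Grin3b-201 and the 3 of pup 3 on the shorter Grin3b-203. Grin3a exceeded Grin3b 148-fold in pup 1, with an exact Poisson interval on the Grin3b count that spans 86.4-fold to 277-fold. In pup 3 the ratio was 171-fold, and its interval, 58.7-fold to 831-fold, is wide because it rests on 3 counts. The motor neuron marker Mnx1 was listed at 0 in both pups.

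**Figure D2:**
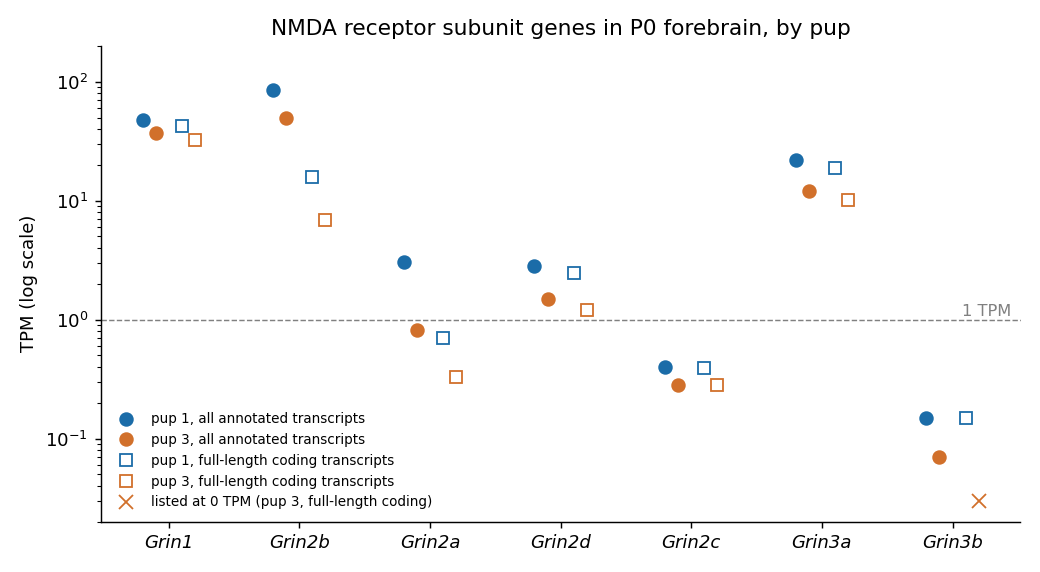
TPM of each subunit gene in pup 1 (blue) and pup 3 (orange) on a log axis, over all annotated transcripts (filled circles) and over full-length coding transcripts (open squares), with a cross where the value is listed at 0. Grin2b lies above Grin1 by the circles and below Grin1 and Grin3a by the squares.

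The GluN1 tail and amino-terminal domain vary by splicing. Of the 8 full-length coding Grin1 transcripts, Grin1-205, which lacks N1 and C1 and ends in C2', led in both pups at 14.99 and 13.44 TPM. Grin1-202, which lacks N1 and C1 and ends in C2, was at 9.98 and 4.25 TPM. Grin1-201, with C1 and C2, was at 7.46 and 6.84 TPM, and Grin1-206, with C1 and C2', at 6.30 and 3.78 TPM. The order of Grin1-201 and Grin1-202 thus differed between the pups by point estimates, but their deposited bounds overlapped within each pup. In pup 1 the bounds were 3.55 to 9.11 TPM for Grin1-201 and 6.30 to 11.2 TPM for Grin1-202. In pup 3 they were 2.91 to 7.67 TPM and 0.990 to 5.40 TPM.

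Forms with the N1 exon were the minority. They held 8.14% of the full-length coding Grin1 TPM in pup 1 and 13.1% in pup 3 (10.6 ± 3.48%, n = 2 pups). Nearly all of it came from Grin1-207, with N1 and C2', at 3.43 and 4.18 TPM, while Grin1-203, Grin1-204 and Grin1-208 were between 0 and 0.04 TPM. These estimates were poorly determined. In both pups the point estimate of Grin1-207 lay above its own deposited bounds, which ended at 2.59 TPM (pup 1) or 3.94 TPM (pup 3). The deposited posterior mean of Grin1-204 was 0.90 and 1.14 TPM where the point estimate was 0.00 TPM. Since all 4 annotated N1 forms start at the same base, 25319095, and the other 4 elsewhere, start site and N1 exon cannot be told apart in these tables.

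The C1 exon was held by 32.6% of the full-length coding Grin1 TPM in pup 1 and 32.7% in pup 3. The C2' ending held 58.6% and 65.8% and the C2 ending 41.4% and 34.2%. By tail, the form with neither C1 nor C2 (GluN1-4) was the largest, at 43.7% and 54.1%. The form with C1 and C2 (GluN1-1) held 19.4 ± 2.34% (n = 2 pups), that with C2 alone (GluN1-2) 23.7% and 13.1%, and that with C1 and C2' (GluN1-3) 14.9% and 11.7%. By point estimates the share of C1 was close in the pups, and that of C2 alone was not. These shares carry no bounds of their own, and the deposited bounds of the C1 transcripts were wide. Those of Grin1-206 were 2.82 to 8.04 TPM in pup 1 and 0.00444 to 5.04 TPM in pup 3.

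**Figure D3:**
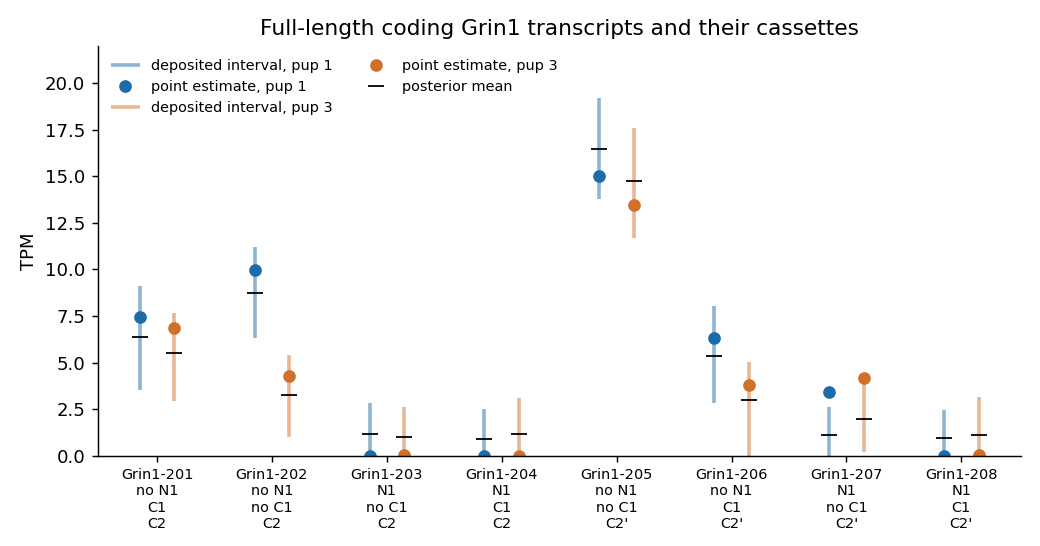
TPM of the 8 full-length coding Grin1 transcripts in pup 1 (blue) and pup 3 (orange), with dots for point estimates, vertical lines for the deposited bounds and dashes for posterior means, and the cassettes of each form below. Grin1-205 leads in both pups, and the dot of Grin1-207 lies above its line.

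All 5 subunit genes with a mean of 1 TPM or more were lower in pup 3 than in pup 1, and 79.6% of 15463 such genes of any kind were too. On log2(TPM + 1) the differences were -0.36 for Grin1, -0.76 for Grin2b, -0.61 for Grin2d, -0.83 for Grin3a and -1.16 for Grin2a, against a median of -0.24 over all those genes. Scaled instead as counts with edgeR's TMM factors, the median over all genes was 0.04, and the same genes stood at -0.06 for Grin1, -0.69 for Grin2b, -0.57 for Grin2d, -0.55 for Grin3a and -0.76 for Grin2a. All 5 were thus lower in pup 3 on both scales, Grin1 by little on the second. The share of all genes lower in pup 3 was not computed on the second scale. None of the 3 subunit genes with 5 TPM or more in a pup was over 2-fold apart, and 2.50% of 11477 such genes were. Over full-length coding transcripts 1 was, Grin2b, at -1.08 on log2(TPM + 1). The share of all genes over 2-fold apart was not computed over those transcripts. In bulk tissue, fewer cells of a type and less RNA per cell cannot be told apart.

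Longer transcripts were lower in pup 3 across the whole library. The median difference over detected protein-coding genes went from -0.06 for leading full-length coding transcripts under 2000 bases to -0.25 (2000 to 4000 bases), -0.37 (4000 to 6000), -0.46 (6000 to 8000) and -0.60 from 8000 bases up. Grin1, with a leading coding transcript of 3838 bases, lay within the 10th to 90th percentile of its length class, and so did Grin2d at 5431 bases. Over all transcripts Grin2b (7484 bases) lay at the 10th percentile of its class, -0.76, Grin3a (7431 bases) below it, and Grin2a (14634 bases) below the -0.93 of the longest class. The leading transcript is the one with the highest mean TPM, which for Grin2b is Grin2b-202. Grin2b-201, of 24060 bases, held more counts. By its length Grin2b would fall in the longest class, and -0.76 lies within the -0.93 to -0.23 of that class. Most of the Grin2b TPM behind -0.76 was that of the 241-base Grin2b-207.

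The places of Grin2b and Grin2a changed when the subunit genes and the genes of each class were both taken over full-length coding transcripts, a comparison added after seeing the data. Grin2b was then at -1.08 and Grin3a at -0.83, both below the 10th percentile of their class, -0.69. The value of Grin2b was also below the 10th percentile of the longest class, -0.78. Grin2a was at -0.35, inside the -0.78 to -0.17 of its class, on a scale that understates its 2.12-fold difference because both of its values lie under the 1 TPM added.

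Markers of regions and cell types also differed between the pups. All 5 thalamus markers were lower in pup 3, beside 79.6% of genes with a mean of 1 TPM or more. Of the 5, 4 were over 2-fold apart, beside 2.50% of genes with 5 TPM or more in a pup. The thalamus markers had a median difference of -1.16 and a summed level of 338 TPM in pup 1 against 134 TPM in pup 3. Tcf7l2 held 233.20 and 89.58 TPM of those sums, but 1.72 and 1.97 TPM over full-length coding transcripts. Slc17a6, Gbx2, Lhx9 and Rora were lower in pup 3 over full-length coding transcripts too. Medians were -0.52 for inhibitory neuron markers, -0.43 for astrocyte markers and -0.23 for neuron markers. The neuron markers were spread, with Snap25 at -0.75, Syt1 at -0.60, Rbfox3 at -0.23, Stmn2 at -0.22 and Tubb3 at -0.10. The forebrain list had a median of 0.01 and a summed level of 392 TPM in pup 1 against 482 TPM in pup 3, with Neurod6, of cortical excitatory neurons, at 196.84 and 315.67 TPM, and Emx1, of the dorsal forebrain, at 23.80 and 32.62 TPM. The part of tissue makeup, and of transcript length, in the subunit genes' differences was not tested.

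**Figure D4:**
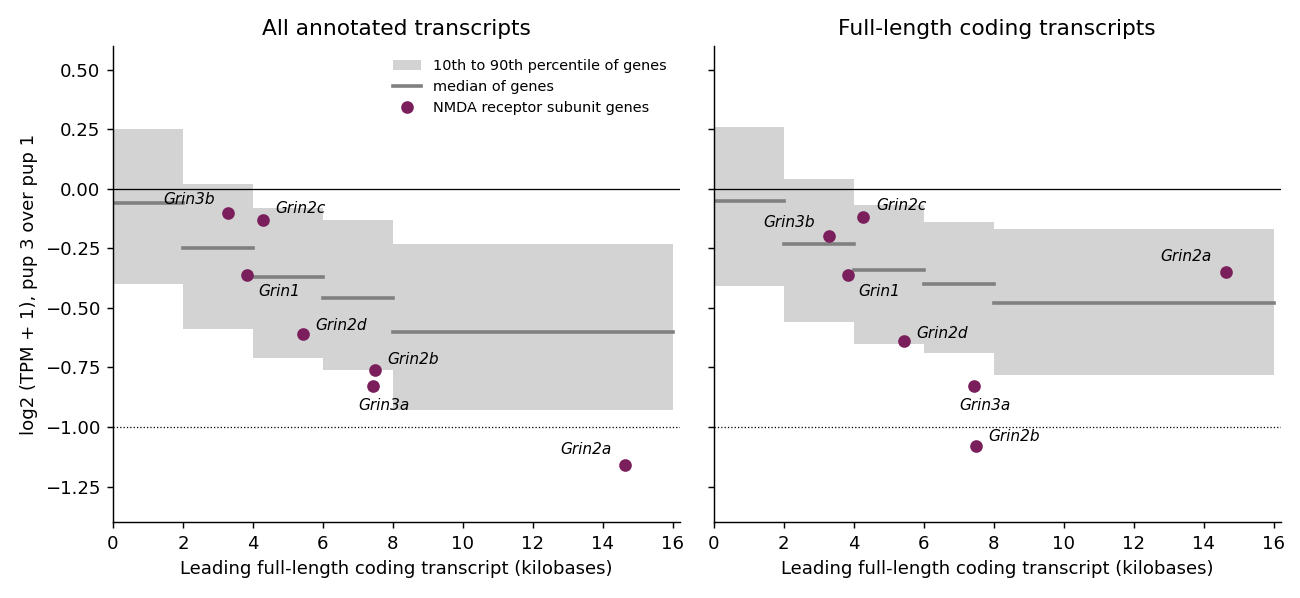
Difference between the pups in log2(TPM + 1), pup 3 over pup 1, over all annotated transcripts (left) and over full-length coding transcripts (right), against the length of the leading full-length coding transcript in kilobases. Dots are the 7 subunit genes, grey lines the median and grey areas the 10th to 90th percentile of detected protein-coding genes in each length class (the last, from 8000 bases up, is drawn to the axis end). Grin3a lies below the grey area on both sides, Grin2a on the left alone, and Grin2b, at its edge on the left, below it on the right.

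Annotated neighbours on the opposite strand share exon bases with several subunit genes, and strandedness is not given in the sources used here. Grin1os shares 1307 bases with Grin1 but held 22 and 8 expected counts. Gm45441 shares 643 bases with Grin2d and held 94 and 66 counts, beside 347 and 197 for Grin2d. Tmem259 shares 1059 bases with Grin3b and held 1105 and 1155 counts, beside 13 and 3 for Grin3b, so the Grin3b level is uncertain. At Grin2b, Gm26653 shares 49 bases near the start (14 and 9 counts) and Gm14329 shares 143 (0 and 3 counts). Gm22892 and Gm14330 at Grin2b, Gm25837 at Grin2c, Gm22098 at Grin2d and Gm12459 at Grin3a had 0 counts, and Kdelr1 at Grin2d and Ppp3r2 at Grin3a share no exon bases with them.

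Lists of genes that work with NMDA receptors were set beside the subunits, whose median of mean TPM was 2.15, against 17.1 over detected and 3.77 over all protein-coding genes. Of 12 genes for supply and removal of the co-agonists, 11 were detected, with a median of 26.7 TPM over the list. The serine synthesis enzymes Phgdh (125 ± 9.74 TPM), Psat1 (51.4 ± 8.08 TPM) and Psph (36.9 ± 1.97 TPM) and the neutral amino acid transporter Slc1a4 (51.8 ± 8.69 TPM) led it. Dao, which degrades D-serine, was at 0.00 and 0.06 TPM.

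All 23 scaffold and trafficking genes were detected, with a median of 9.62 TPM. Over all transcripts their 4 highest were Dlgap4 (276 ± 23.3 TPM), Akap9 (173 ± 66.1 TPM), Lin7c (127 ± 24.4 TPM) and Cask (38.8 ± 12.8 TPM), of which Lin7c and Cask belong to the complex that carries GluN2B vesicles. The first 2 owed their place to other than full-length coding transcripts, over which Dlgap4 stood at 11.4 ± 2.28 TPM and Akap9, an anchor for kinases and phosphatases, at 10.5 ± 2.46 TPM, below Lin7c at 124 ± 22.9 TPM and Cask at 35.8 ± 13.3 TPM. Of the Akap9 TPM, 77.8% lay in transcripts under 500 bases. All 22 kinase, phosphatase and signalling genes were detected too, with a median of 49.7 TPM, and among the highest were the calmodulin genes Calm2 (2700.5 ± 5.19 TPM) and Calm3 (335 ± 2.65 TPM) and the kinase gene Camk2b (206 ± 36.0 TPM).

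Of the chromatin and transcription factors reported at Grin genes all 8 were detected, with a median of 14.8 TPM. Mef2c (364 ± 78.2 TPM) was the highest, followed by Ezh2 (32.1 ± 3.01 TPM), which methylates histone H3, Tbr1 (22.5 ± 0.587 TPM) and Nrf1 (18.1 ± 2.21 TPM). All 11 other ionotropic glutamate receptor genes were detected, with a median of 11.6 TPM, led by the AMPA receptor genes Gria2 (106 ± 35.8 TPM) and Gria1 (57.7 ± 26.6 TPM) and the kainate receptor genes Grik2 (19.6 ± 7.58 TPM) and Grik1 (16.0 ± 5.11 TPM).

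Between the pups, the median difference in log2(TPM + 1) was -0.24 in the co-agonist list, -0.47 in the scaffold list, -0.38 in the signalling list and -0.21 in the chromatin list. It was -0.70 over the other glutamate receptor genes and -0.76 over the 5 subunit genes with a mean of 1 TPM or more. Over 2-fold apart were Dlgap2 and Lin7a (2 of 20 scaffold genes), Tiam1 (1 of 20 signalling genes) and Grid1 (1 of 10 other receptor genes), all higher in pup 1 and named after their values were seen, beside the 2.50% of all such genes.

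**Figure D5:**
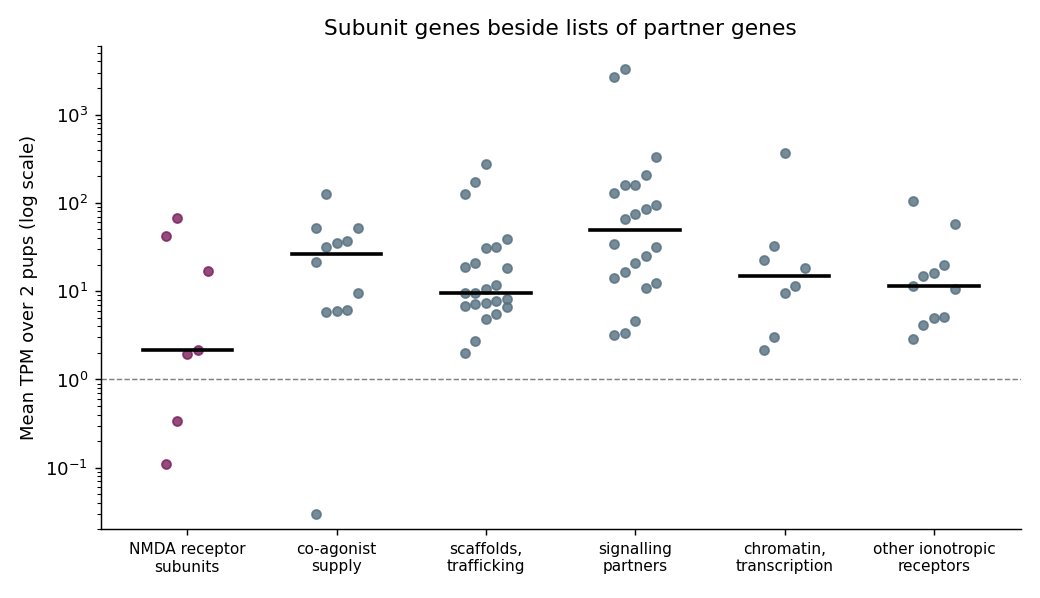
Mean TPM over the 2 pups on a log axis for the subunit genes and 5 lists of partner genes, with a dot per gene, black bars for medians and a dashed line at 1 TPM. The subunit median lies at 2.15 TPM, below the medians of the 5 lists.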

How the data were processed

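PolyA RNA-seq of 2 forebrains was taken from the tables that the authors deposited per library for mm10. These hold expected counts per gene and transcript, TPM as point estimates and posterior means, lower and upper TPM bounds (used as deposited signal values), and the deposited percent of a gene's TPM that falls on each transcript. Column names are those of RSEM, per the file headers. Which aligner, quantifier and strand setting were used is not given in the sources used here. TPM were deposited over all 81881 listed features, of which 55536 are genes, all matched to GENCODE M21.

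Computed here with Python 3.11.15 and pandas 2.3.3: means, SDs, log2 ratios within a library on TPM + 0.1, differences between pups on TPM + 1 and shares of transcripts. edgeR 4.0.16 in R 4.3.3 gave normalization factors for CPM from the expected counts. The 2-fold calls and the median difference over all genes were checked on simulated counts, and the other calculations were not. No test was run, since the labels give 1 group, and likeness to other genes was not computed from 2 samples. Named were all 7 subunit genes, their transcripts with 10% or more of the gene's TPM in a pup, overlapping genes, and of each list the 4 highest genes and any under 1 TPM in a pup, except 1 that is not reported here. Members and lists were chosen with earlier results of these data known. Alternatives were M4, posterior means, CPM, other pseudocounts and minimums, leaving out short transcripts and leaving out each pup.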

Additional observations from a re-analysis of the deposited data

How the results depend on the processing

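Grin2b exceeded Grin2a, and Grin3a exceeded Grin3b, under every alternative run, while the place of Grin2b against Grin1 and Grin3a depended on the transcripts counted. The log2 ratio of Grin2b to Grin2a, 5.26, was 4.45 with M4, 3.39 without transcripts under 500 bases, 4.13 on CPM and 4.17 over full-length coding transcripts. The latter setting was chosen after seeing the data, as were the ratios of Grin2b to Grin1 and of Grin3a to Grin2b. The Grin2b share of GluN2 TPM, 94.1%, was 87.4%, 81.2%, 88.8% and 80.5% under the same 4 settings. The GluN2 sum to Grin1, 0.70, turned to -0.38 with M4, -0.95 without short transcripts and -1.50 over full-length coding transcripts, and was 0.23 on CPM. Grin2b to Grin1, 0.61, turned to -0.58, -1.25 and -1.81 under those 3 settings in that order and was 0.06 on CPM. Both CPM values are means over pups that differed in sign. Grin2b was above Grin1 in pup 1, at 140.3 against 108 CPM, and below it in pup 3, at 77.2 against 92.2 CPM. The GluN2 sum was likewise above Grin1 in pup 1 and below it in pup 3. Grin3a to Grin2b, -1.98, was -0.80 with M4, -0.11 without short transcripts and -0.48 on CPM, and turned to 0.40 over full-length coding transcripts. M4 lacks the 241-base entry and the settings on length leave it out. Grin2a changed with M4 too, with 3 transcripts in place of 6, and 138 and 52 counts in place of 345 and 166. Grin3a to Grin3b, 6.31, was 5.80 on posterior means, 8.13 on CPM, 7.17 with a pseudocount of 0.01 and 3.97 with 1. CPM drops the scaling for length, and Grin3b had 13 and 3 counts. The C1 share of Grin1, 32.7%, was 33.6% on posterior means and 33.9% with M4. Over 2-fold apart was 1 gene in place of 0 with a minimum of 1 TPM or with no minimum (Grin2a), and 1 over full-length coding transcripts (Grin2b). The share of all genes over 2-fold apart was not computed under these settings, so these counts have no background to be read against.

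Leaving out a pup leaves the value of the other pup, which lies within 1 SD of the mean by construction and says nothing about stability. Detected subunit genes were 4 in pup 3 and 5 in pup 1, the fifth being Grin2a. No paired analysis was possible because the series has 1 group. Counts under 50 limited Grin2c and Grin3b, and splicing shares rest on the deposited assignment of reads, which was not checked on reads here.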
